A study of Mus musculus with 4 samples.

Results

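Intestinal stem cells of mice on a control diet and on a ketogenic diet were compared in single-cell transcriptomes of the small intestine. The stem cells were the cells that the authors' deposited cell table annotates as stem, in all libraries, 1583 of 15053 cells. Control libraries 1 and 2 held 312 and 557 of them, and ketogenic libraries 1 and 2 held 254 and 460. The annotation was used as it stands, and no expression value entered the choice here.

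Intestinal stem cells sit at the base of the crypt between Paneth cells, divide throughout life and carry the receptor Lgr5, which amplifies Wnt signals. Their daughters pass through a dividing transit amplifying stage and mature into absorptive enterocytes or into goblet, Paneth, enteroendocrine and tuft cells. Fatty acids can act on these cells through the nuclear receptors of the PPAR family, which switch on genes for binding, activating and oxidizing fat. Ketone bodies are a second fuel and signal that rises when carbohydrate is scarce.

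The mice were kept on a control diet or a ketogenic diet, which is rich in fat and very low in carbohydrate, and each diet had 2 libraries. Both diets' mice were male with normal disease status, per the deposited cell table. The sources used here do not state strain, genotype, age or time on the diet. The question posed by the title of the series is whether lipids or ketones link such a diet to intestinal tumours. Nothing in the sources says that a library came from a single animal, so p-values measure the spread between libraries, which may be partly technical.

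The stem cells of the 4 libraries gave 1712487 to 3400566 unique molecular identifiers (UMIs, counted transcripts) in sum. Median depth per stem cell was 5646 and 6294 UMIs for the control diet and 5820.5 and 7722 for the ketogenic diet. Mitochondrial transcripts made up a median of 11.5% and 8.26% of UMIs in control stem cells and 16.2% and 8.52% in ketogenic stem cells. Ketogenic library 1 was therefore both the smallest sample of stem cells and the richest in mitochondrial transcripts. Pairs of libraries shared 10 to 26 cell barcodes in all, and 0 or 1 barcode between stem cells.

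The label was checked against 6 stem cell markers, with levels in CPM, counts scaled to the same total for the summed UMIs of each class. Lgr5 stood at 207, 212, 186 and 211 CPM in stem cells of control 1, control 2, ketogenic 1 and ketogenic 2, and was 5.80 to 8.31 times higher than in the next class. Olfm4, a secreted glycoprotein of crypt base cells, was 2.41 to 4.89 times higher than in the next class. Gkn3, a gastrokine, was 1.82 to 2.87 times higher and the chloride cotransporter Slc12a2 was 1.98 to 2.28 times higher. Smoc2, a matrix protein, was nearly as high in tuft cells, at a ratio of 1.03 to 1.48. The Wnt-driven transcription factor Ascl2 was below its tuft cell level in both ketogenic libraries, and its ratio ran from 0.855 to 1.40. These levels describe the class and were not tested, because the sources used here do not state how the classes were made, and these genes may have been used.

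**Figure D1:**
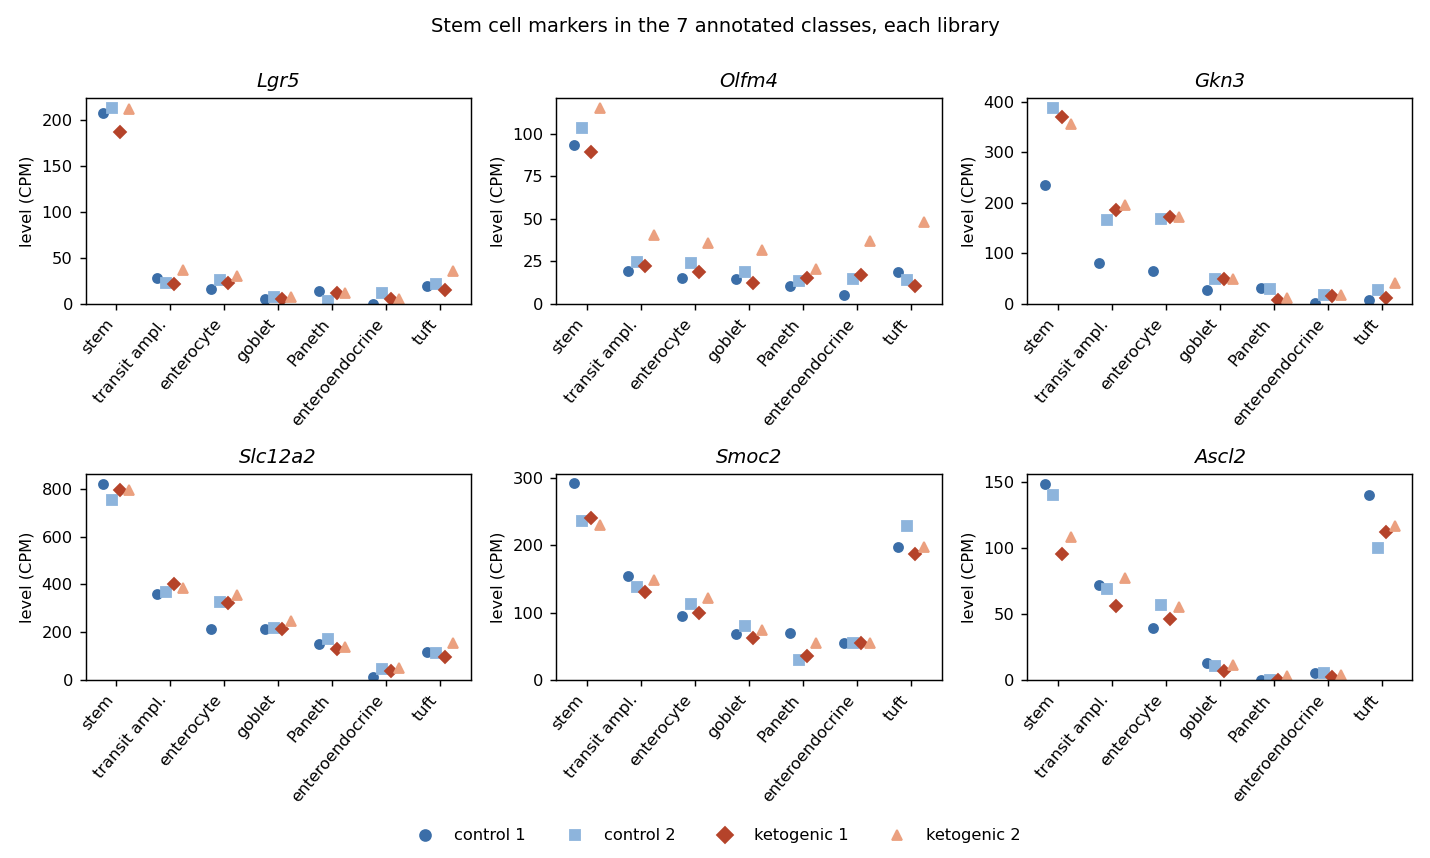
Level of 6 stem cell markers (CPM, y axis) in each of the 7 annotated classes (x axis), with 1 point per library. Lgr5 is highest in stem cells in all 4 libraries (186 to 212 CPM), and for Ascl2 the values of tuft cells and stem cells overlap.

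The stem class also carried transcripts of genes used as markers of other cell types. Summed over 7 goblet markers the stem level was 517 to 595 CPM. The 7 Paneth markers, products of the cells that flank stem cells in the crypt, summed to 351, 305, 531 and 305 CPM, so ketogenic library 1 stood above the other libraries. A UMI of a Paneth marker was found in 56.1% and 55.3% of control stem cells and in 90.9% and 75.2% of ketogenic stem cells. The 7 enterocyte markers summed to 226, 176, 185 and 169 CPM and were not higher on the ketogenic diet. Of these sums Vil1 gave 131, 111, 107 and 110 CPM. Vil1 was also at 143 to 154 CPM in goblet cells and at 240 to 296 CPM in tuft cells. The sum, and a choice of cells with 0 UMIs of these markers, thus rest in part on a gene not particular to enterocytes. Tuft and immune markers summed to at most 8.76 and 4.21 CPM, and 5 of 7 immune and 5 of 6 stromal and endothelial markers had 0 UMIs.

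Stem cells made up 8.79% and 11.4% of captured cells on the control diet and 7.95% and 13.5% on the ketogenic diet. The ketogenic libraries gave both the lowest and the highest share, so the diets overlapped. The log2 ratio of the mean shares was 0.09 (exact two-sided permutation test over 4 libraries, p = 1, with 0.33 the smallest p that 6 assignments allow). Among stem and transit amplifying cells alone the stem share was 41.3% and 45.2% on the control diet and 41.4% and 52.1% on the ketogenic diet, and these ranges overlapped as well. At least 1 Lgr5 UMI was found in 73.7% and 70.7% of control and 69.7% and 80.2% of ketogenic stem cells.

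The diets were then compared gene by gene in the summed stem cells with edgeR's quasi-likelihood test and Benjamini-Hochberg adjustment over all genes, at a threshold of 0.05. Of 9514 genes tested 32 changed, or 0.336%, with 25 higher (0.263%) and 7 lower (0.0736%) on the ketogenic diet. DESeq2 called 12 of 6378 genes that it gave an adjusted p (0.188%), with 9 higher (0.141%) and 3 lower (0.047%). At an unadjusted p under 0.05 edgeR gave 611 genes (6.42%), with 343 higher (3.61%) and 268 lower (2.82%). The median log2 fold change of all genes was near 0, at 0.00057. Among the 25 that rose, 15 are on the list of PPAR targets and 7 on that of mitochondrial fatty acid oxidation, and a gene can be on both. The lists and their members were chosen with earlier results of these data known, so such counts are a description and no test. Leaving out control library 1 or 2 gave 84 or 100 called genes, and leaving out ketogenic library 1 or 2 gave 48 or 53. In stem cells with 0 UMIs of the enterocyte markers, a setting chosen after seeing the data, 5 of 6524 genes were called, among them Fabp1, Acot1, Acadl and Smim24, with 321 at an unadjusted p under 0.05.

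Fabp1, which binds fatty acids in the cytosol and is a textbook PPAR target, had the largest rise. Its level was 49.5 and 62.1 CPM in control stem cells and 768 and 464 CPM in ketogenic stem cells. Both ketogenic libraries stood far above both controls, with ketogenic library 1 the highest, and the log2 fold change was 3.44 ± 0.19 (SE, n = 2 libraries per diet, edgeR adjusted p = 1.13e-11). It was called with each library left out in turn and in stem cells with 0 UMIs of the 7 enterocyte markers, where its log2 fold change was 3.72.

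The sequence before the Fabp1 start is shown because PPAR and its partner receptors bind direct repeats of the half-site AGGTCA with 1 base between them. The stretch lies at chr6:71199629-71199826 (mm10, plus strand, RefSeq promoter table of GRCm38.p6), just before the annotated gene at 71199827 to 71205023. Capitals mark the match to 2 copies of AGGNCA with 1 base between them, searched on both strands, which reads AGGCCATAGGTCA on the strand opposite to the gene.
Fabp1: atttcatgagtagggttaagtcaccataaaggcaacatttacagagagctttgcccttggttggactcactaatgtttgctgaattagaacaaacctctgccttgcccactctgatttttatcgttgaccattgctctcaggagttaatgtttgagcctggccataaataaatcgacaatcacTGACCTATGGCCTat
The match ends 3 bases before the gene start in GENCODE M21, and 55 bases before the RefSeq start. This motif was found in 0.381% of 32851 promoter windows of 300 bases, and in 1 of the 24 named called genes that have a window. The half-site AGGTCA alone, which can overlap the longer motif, was in 16.3% of windows and in 8 of those 24 genes. The 24 genes have 31 windows, and a gene counts if any of its windows matches. Shares of windows and counts of genes are thus different measures. A match is a description of the letters and not a measured binding site.

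Other fat-handling genes rose with Fabp1, among them a regulator, a lipase and a lipase inhibitor. Creb3l3, a membrane-bound transcription factor that drives lipid genes in liver and gut, was at 2.04 and 4.00 CPM in control and 28.6 and 19.9 CPM in ketogenic stem cells (log2 fold change 2.82 ± 0.35, edgeR adjusted p = 5.26e-05). Mgll, which splits monoglycerides into glycerol and a fatty acid, had 0 and 7 UMIs in control and 27 and 31 UMIs in ketogenic stem cells. Its log2 fold change was 3.08 ± 0.55 (edgeR adjusted p = 0.00477), and 7.78 without control library 2, which leaves a control of 0 UMIs. Angptl4, a secreted inhibitor of lipoprotein lipase, was at 1.53 and 11.4 CPM in control and 44.7 and 19.3 CPM in ketogenic stem cells (log2 fold change 1.94 ± 0.40, edgeR adjusted p = 0.0244). The 2 control libraries of Angptl4 differed widely, and leaving out control library 2 moved its log2 fold change to 4.18. In none of the 3 genes did the diets overlap.

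Acyl-CoA thioesterases, which free fatty acids from coenzyme A, formed another group. Acot1, the cytosolic form, was at 81.2 and 88.8 CPM in control and 330 and 247 CPM in ketogenic stem cells (log2 fold change 1.75 ± 0.14, edgeR adjusted p = 2.39e-08). Acot1 lies at chromosome 12, 84009490 to 84018371 (mm10, plus strand). Acot2, its mitochondrial neighbour at 83987861 to 83993873, was at 7.15 and 5.84 CPM in control and 21.5 and 17.2 CPM in ketogenic stem cells (1.56 ± 0.30, edgeR adjusted p = 0.0100). Both rose with no overlap between diets. The pair are tandem copies of similar sequence, so reads could be split between them and their separate values are uncertain.

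Of 26 tested genes on the list of mitochondrial fatty acid oxidation 7 rose. Acot2, described above, is one of them, and the others lie at several steps of beta-oxidation. Cpt1a, which loads fatty acids onto carnitine for entry into mitochondria, was at 32.7 and 36.6 CPM in control and 75.7 and 55.8 CPM in ketogenic stem cells. Acadl and Acadvl, the long and very long chain dehydrogenases of the first oxidation step, went from 38.3 and 42.7 to 88.3 and 95.2 CPM, and from 81.7 and 86.7 to 150 and 143 CPM. Eci2, which shifts double bonds so that unsaturated fat can be oxidized, went from 79.2 and 74.1 to 149 and 125 CPM. Each of these genes rose without overlap, by 0.79 to 1.17 on the log2 scale in the edgeR fit.

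The last steps of the cycle were called too, with smaller changes. Acaa2, the mitochondrial thiolase, went from 142 and 156 to 237 and 252 CPM (log2 fold change 0.71 ± 0.12, edgeR adjusted p = 0.00334). Hadhb, the beta subunit of the trifunctional protein, went from 106 and 128 to 187 and 166 CPM (0.58 ± 0.13) and passed at the threshold itself (edgeR adjusted p = 0.04999). Its partner subunit Hadha was at 96.5 and 104 CPM in control and 155 and 131 CPM in ketogenic stem cells and did not pass (0.50 ± 0.13, edgeR adjusted p = 0.135). The calls of Cpt1a and Hadhb rested on ketogenic library 1, with log2 fold changes of 0.68 and 0.50 without it, and Hadhb also on control library 1 (0.46 without it). Cpt2, which takes fatty acids back off carnitine, was at 0.50 ± 0.16 (edgeR adjusted p = 0.386), and Acadm, the medium chain dehydrogenase, at 0.05 ± 0.15 (edgeR adjusted p = 0.991).

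Of 26 tested genes of mitochondrial fatty acid oxidation 7 rose and 0 fell by edgeR, against 4 rises by DESeq2 and 13 higher at an unadjusted p under 0.05. Of all tested genes 3.61% were higher at that unadjusted p. The median log2 fold change of the 26 was 0.36. In 15 of the 26 both ketogenic libraries lay above both controls, where 17.4% of all tested genes did so. Of 32 tested PPAR targets, among which are most of the genes just described, 15 rose and 0 fell by edgeR, against 7 rises by DESeq2. By edgeR 0.263% of all tested genes rose, and by DESeq2 0.141% of those it gave an adjusted p. The unadjusted p was under 0.05 for 21 higher and 0 lower PPAR targets. With 1 library left out 11 to 16 of the PPAR targets rose, and 3 rose in cells with 0 enterocyte marker UMIs, a smaller sample in which 1 of the mitochondrial genes rose. The median of the PPAR targets was 0.63, and 25 of the 32 had no overlap in the upward direction. Both lists were chosen with earlier results of these data known, so these counts describe the lists and do not test them. A further 9 listed PPAR targets had too few UMIs to test, among them Pdk4, a brake on glucose oxidation, with 1 and 1 UMIs in control and 7 and 5 in ketogenic stem cells.

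Peroxisomes shorten very long fatty acids. Of 20 tested genes of peroxisomal fatty acid oxidation Ech1, an isomerase, was the only one called (edgeR adjusted p = 0.0150). Ech1 went from 135 and 163 to 254 and 218 CPM, with a log2 fold change of 0.65 ± 0.13, and it was not called without ketogenic library 1 (0.55). DESeq2 called 0 of the 20, and 6 were higher at an unadjusted p under 0.05, where 3.61% of all tested genes were. Pex11a, which drives peroxisome division, went from 9.19 and 14.8 to 26.8 and 24.8 CPM and narrowly missed the threshold (1.03 ± 0.24, edgeR adjusted p = 0.0661). The median of the 20 was 0.24, and 15 had no overlap upward, where 17.4% of all tested genes had none.

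**Figure D2:**
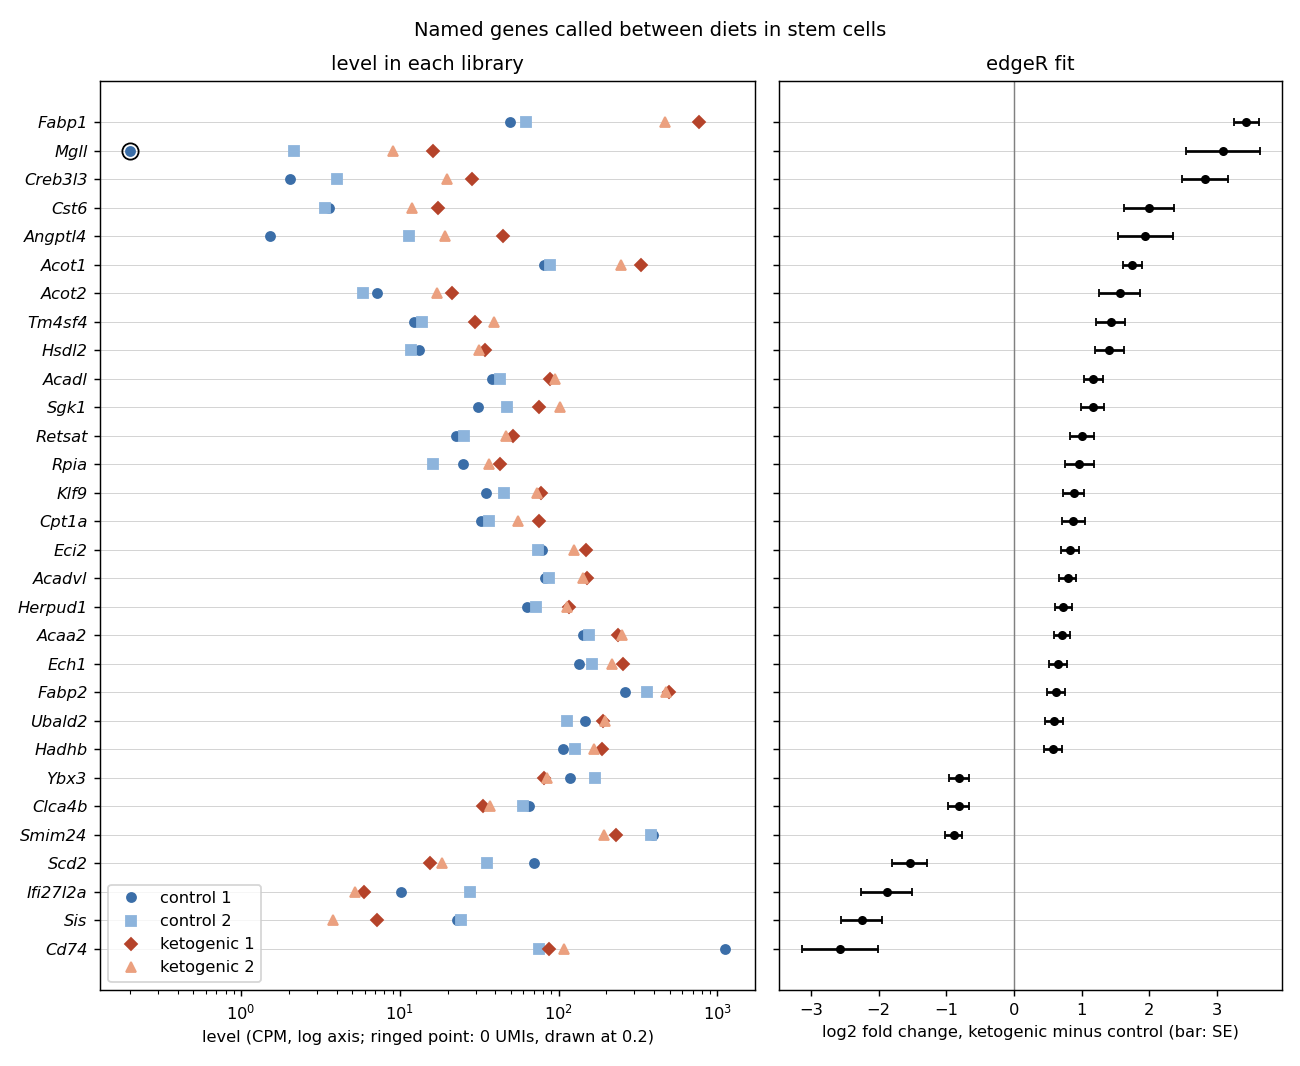
Left, level of the 30 named called genes in stem cells of each library (CPM, log x axis), and right, the edgeR log2 fold change with its SE. Rises run from Fabp1 (3.44) to Hadhb (0.58), and for Cd74 control library 1 stands alone at 1119 CPM.

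Other rises lay outside fatty acid oxidation. Sgk1, a kinase induced by glucocorticoids and by osmotic stress, went from 31.2 and 47.3 CPM to 75.7 and 102 CPM (log2 fold change 1.16 ± 0.17, edgeR adjusted p = 0.000858). Klf9, a glucocorticoid-induced zinc finger factor, went from 34.7 and 45.2 to 76.9 and 73.6 CPM (0.88 ± 0.15, edgeR adjusted p = 0.00449). Among 16 tested glucocorticoid-responsive genes these were the 2 that rose by edgeR, 0 fell, 1 rose by DESeq2, and the median was 0.14. The unadjusted p was under 0.05 for 6 higher and 2 lower ones, where 3.61% and 2.82% of all tested genes were. In 7 of the 16 both ketogenic libraries lay above both controls and in 2 below. Of all tested genes 17.4% and 17.5% did so. Fkbp5, another classic target of the hormone, was at 0.70 and did not pass (edgeR adjusted p = 0.412).

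A stretch before 1 of the 6 RefSeq starts of Sgk1 is shown because it holds the palindrome that the glucocorticoid receptor recognizes, at chr10:21993648-21993767 (mm10, plus strand, RefSeq promoter table). Capitals mark the match to GNACA and TGTNC with 3 bases between them, searched on both strands, which begins 188 and ends 176 bases before that start.
Sgk1: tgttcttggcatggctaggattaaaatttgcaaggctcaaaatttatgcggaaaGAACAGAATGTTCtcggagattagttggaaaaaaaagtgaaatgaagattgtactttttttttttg
The palindrome was found in 0.475% of the promoter windows and in 1 of the 24 named called genes with a window. The 24 genes have 31 windows, so the share of windows and the count of genes are different measures. Whether the receptor binds there was not measured.

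Retsat, a retinol saturase under PPAR control, went from 22.5 and 25.5 to 51.3 and 46.7 CPM in stem cells. Hsdl2, a peroxisomal and mitochondrial dehydrogenase-like protein, went from 13.3 and 11.7 to 34.6 and 31.5 CPM. Tm4sf4, a tetraspan membrane protein best known from endocrine cells and liver, went from 12.3 and 13.8 to 29.8 and 39.4 CPM. All 3 rose without overlap between diets, with log2 fold changes of 1.00 ± 0.18, 1.41 ± 0.21 and 1.43 ± 0.22. Tm4sf4 averaged 1087 CPM in control and 1329 CPM in ketogenic enteroendocrine cells, and 567 and 735 CPM in tuft cells. Whether transcripts of those cells play a part in its stem cell values was not tested. Cst6, a secreted protease inhibitor, rose from 7 and 11 UMIs to 29 and 41 UMIs (2.00 ± 0.37, edgeR adjusted p = 0.00734). Fabp2, the intestinal fatty acid binding protein, went from 263 and 363 to 493 and 475 CPM (0.62 ± 0.13, edgeR adjusted p = 0.0323), a call lost without control library 1 (0.42) or ketogenic library 1 (0.60).

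The remaining named rises concerned protein turnover, sugar phosphates and a gene of less known role. Herpud1, a component of degradation at the endoplasmic reticulum, went from 63.3 and 72.5 to 116 and 112 CPM (0.73 ± 0.13, edgeR adjusted p = 0.00556). It was the 1 rise among 20 tested genes of the unfolded protein response, whose median was -0.02, with 0 falls by edgeR and 0 calls by DESeq2. The unadjusted p was under 0.05 for 3 higher and 2 lower ones, where 3.61% and 2.82% of all tested genes were. Rpia, an isomerase of the pentose phosphate pathway, went from 25.0 and 16.3 to 42.9 and 36.2 CPM. Ubald2 went from 147 and 112 to 191 and 197 CPM. Control library 2 decided the calls of Rpia and Ubald2, with log2 fold changes of 0.64 and 0.41 without it against 0.97 ± 0.21 and 0.60 ± 0.13 with it. Rpia was also not called without ketogenic library 1 (0.86), and Ubald2 not without ketogenic library 1 or 2 (0.62 and 0.57).

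On the ketogenic diet 7 named genes fell in stem cells. Sis, the sucrase-isomaltase of the brush border, went down from 22.98 and 24.3 CPM on the control diet to 7.16 and 3.80 CPM on the ketogenic diet (log2 fold change -2.25 ± 0.30, edgeR adjusted p = 0.000171). Scd2, a fatty acid desaturase of lipid synthesis, went from 70.0 and 35.3 to 15.5 and 18.4 CPM (-1.54 ± 0.25, edgeR adjusted p = 0.00193), and its value was -1.02 without control library 1. Smim24, a small membrane protein, went from 393 and 382 to 229 and 192 CPM (-0.89 ± 0.12). Whether enterocyte transcripts play a part was not tested for Sis, which had too few UMIs in stem cells with 0 enterocyte marker UMIs, and Smim24 was at -1.01 and called there. Sis and Smim24 are higher in enterocytes than in stem cells, at means of 513 and 1359 CPM in control enterocytes. Sis averaged 23.6 CPM in control and 5.42 CPM in ketogenic stem cells. In the same order it was at 30.4 and 5.94 CPM in goblet cells and 25.2 and 4.30 CPM in the Paneth class. It was at 21.5 and 4.59 CPM in tuft cells, and higher in enteroendocrine cells, at 266 and 205 CPM, and in transit amplifying cells, at 80.9 and 6.07 CPM.

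Clca4b, a member of the chloride channel accessory family, was highest in stem cells among the 7 classes. It went from 65.4 and 59.9 CPM to 33.4 and 36.8 CPM (log2 fold change -0.81 ± 0.16, edgeR adjusted p = 0.0100). Ybx3, a cold shock domain protein that binds RNA and DNA, went from 117 and 170 to 80.5 and 84.7 CPM (-0.81 ± 0.15, edgeR adjusted p = 0.00697). The interferon-induced Ifi27l2a went from 20 and 90 UMIs to 10 and 18 UMIs (-1.88 ± 0.38, edgeR adjusted p = 0.0161). Both rested on control library 2, with -0.49 for Ybx3 and -0.88 for Ifi27l2a without it, neither called.

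Cd74, the invariant chain of antigen presentation by MHC class II, was at 1119 CPM in control library 1 and at 75.6, 87.1 and 108 CPM in the other 3 libraries. The log2 fold change was -2.57 ± 0.56 (edgeR adjusted p = 0.0416). The 2 diets overlapped, and without control library 1 the value was 0.40 (edgeR adjusted p = 0.339), so the call rested on that library alone. H2-Aa, a class II chain, showed the same split with 266 UMIs in control library 1 and 11, 13 and 22 UMIs in the others.

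Genes of stem cell identity stayed close to their control levels. Of 29 tested identity genes Clca4b alone passed by edgeR, DESeq2 called 0, and 3 were lower at an unadjusted p under 0.05. Their median log2 fold change was -0.02, and summed over the list the level was 4226 and 4027 CPM in control and 3995 and 3962 CPM in ketogenic stem cells. Lgr5 was at 203, 217, 190 and 210 CPM, a log2 fold change of -0.07 ± 0.12. Olfm4, Smoc2, Slc12a2 and Gkn3 were at 0.07 ± 0.14, -0.16 ± 0.12, 0.02 ± 0.11 and 0.21 ± 0.16. Gkn3 was called on leaving out control library 2, at 0.67. These intervals leave room for small changes, so a missed threshold does not show that the genes were the same.

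Ascl2 stood apart among the 6 markers. It was at 146 and 144 CPM in control stem cells and at 97.8 and 107 CPM in ketogenic stem cells. The replicates of each diet lay close together and the diets did not overlap, as in 17.5% of all tested genes for this direction. The log2 fold change was -0.49 ± 0.12 and did not pass (edgeR adjusted p = 0.116). Its value with 1 library left out ran from -0.43 to -0.57. In transit amplifying cells it was at -0.06, and the difference from stem cells did not pass either (-0.46 ± 0.13, edgeR adjusted p = 0.132).

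Wnt target and feedback genes gave 0 calls among 16 tested by edgeR and by DESeq2, with 1 lower at an unadjusted p under 0.05 and a median of -0.05. Axin2, Sox9, Cd44, Ephb2 and Rnf43, all standard readouts of Wnt activity in the crypt, lay between -0.17 and 0.08. Of 11 tested genes of the Notch pathway and secretory fate 0 were called by edgeR or DESeq2, and the unadjusted p was under 0.05 for 4 lower ones, where 2.82% of all genes were, and the median was -0.16. Hes6, which opposes the Notch effector Hes1, was at 171 and 155 CPM in control and 113 and 113 CPM in ketogenic stem cells (-0.52 ± 0.12, edgeR adjusted p = 0.0727). The ligand Dll1, which marks the first secretory progenitors, was at 20.9 and 11.1 CPM in control and 8.95 and 8.18 CPM in ketogenic stem cells (-0.84 ± 0.32, edgeR adjusted p = 0.568). Hes1 and Notch1 were at -0.25 ± 0.12 and -0.28 ± 0.16.

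Proliferation genes did not pass. Of 42 genes of the G1/S phase and 49 of the G2/M phase edgeR and DESeq2 called 0, and the medians were -0.07 and 0.04. At an unadjusted p under 0.05 there were 0 higher and 2 lower G1/S genes and 2 higher and 1 lower G2/M genes. In 14 G1/S genes both ketogenic libraries lay below both controls and in 2 above, and in G2/M genes in 10 and 9. Of all tested genes 17.5% lay below and 17.4% above in this way. Mki67, Top2a and Pcna, which mark dividing cells, were at -0.20 ± 0.16, -0.30 ± 0.15 and 0.15 ± 0.14. Myc and Ccnd1, drivers of growth and of the G1 phase, were at 0.27 ± 0.14 and -0.12 ± 0.13. After thinning each cell to 3000 UMIs, 9.64% and 9.93% of control and 10.0% and 9.95% of ketogenic stem cells had an Mki67 UMI.

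**Figure D3:**
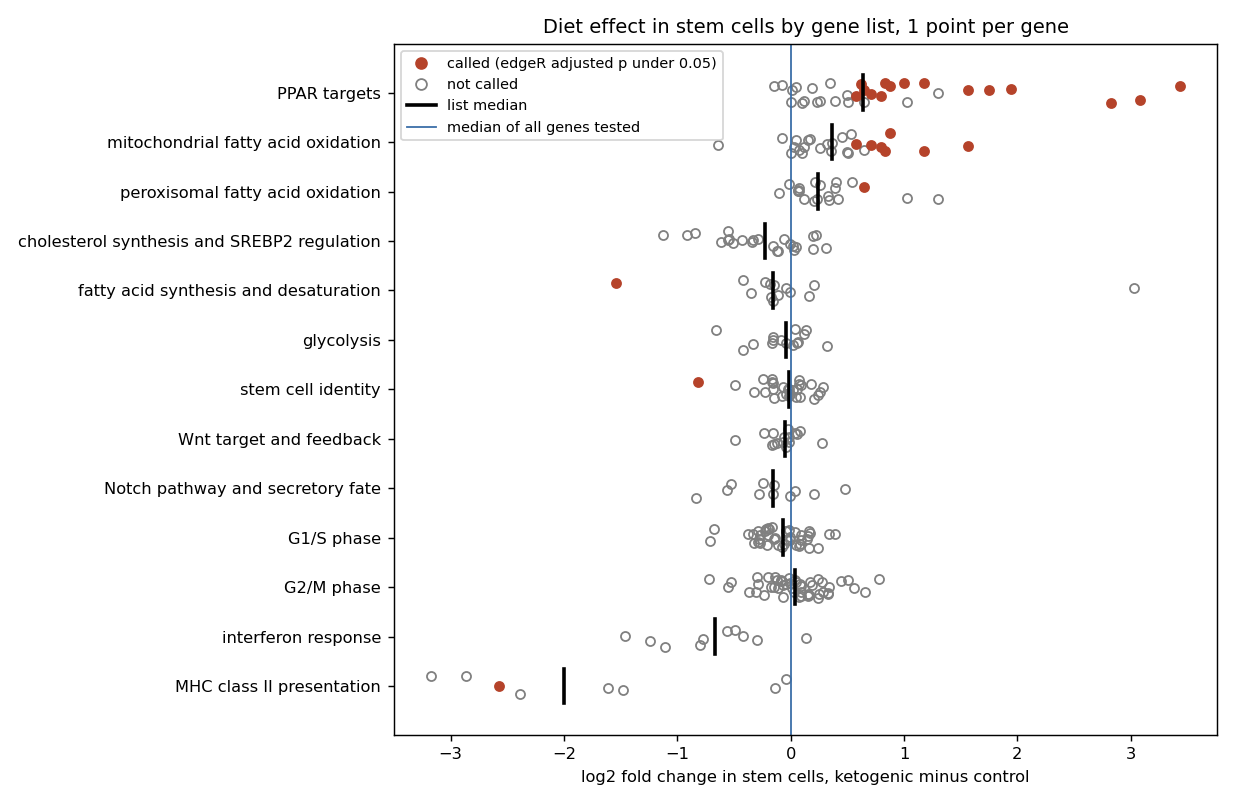
Log2 fold change in stem cells (x axis, ketogenic minus control) of each tested gene in 13 lists, with called genes filled, list medians as black bars and the median of all genes as a line. The PPAR and mitochondrial oxidation medians lie at 0.63 and 0.36, and those of stem cell identity and Wnt genes at -0.02 and -0.05. The lists were chosen with earlier results of these data known.

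Of 21 tested genes of PPAR receptors, coactivators and lipid transcription factors Creb3l3 alone rose and 0 fell by edgeR, with 1 rise by DESeq2 and a median log2 fold change of -0.01. The unadjusted p was under 0.05 for 4 higher and 1 lower ones, where 3.61% and 2.82% of all tested genes were. Ppara was at 3.57 and 4.92 CPM in control and 6.56 and 7.59 CPM in ketogenic stem cells (0.71 ± 0.39, edgeR adjusted p = 0.829). Ppard, the form usually named as the main one of the crypt, was at 36.8, 31.0, 27.4 and 29.2 CPM (-0.23 ± 0.19, edgeR adjusted p = 0.921). Pparg had 1 to 14 UMIs per library and was not tested. The coactivator Ppargc1a was at 4.596 and 9.53 CPM in control and 16.7 and 15.8 CPM in ketogenic stem cells, without overlap, and did not pass (1.09 ± 0.31, edgeR adjusted p = 0.240).

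Genes of ketone synthesis, use and transport that were tested gave 0 calls among 8 by edgeR or DESeq2, and 0 at an unadjusted p under 0.05. Bdh1, which interconverts the ketone bodies, was at 90.9 and 90.4 CPM in control and 103 and 90.2 CPM in ketogenic stem cells. Oxct1, which commits ketones to oxidation, was at 79.7, 66.7, 65.0 and 85.6 CPM, and the transporter Slc16a1 at 56.7, 50.4, 66.8 and 48.5 CPM. In each of these genes the diets overlapped, and the log2 fold change was 0.08.

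Sterol synthesis genes gave no call, and 1 gene of fatty acid synthesis fell. Of 24 tested genes of cholesterol synthesis and its control by SREBP2, 0 were called by edgeR or DESeq2, and the median was -0.22. The unadjusted p was under 0.05 for 6 lower ones, where 2.82% of all tested genes were. Sqle, the squalene epoxidase, was at 39.8 and 27.7 CPM in control and 20.3 and 15.8 CPM in ketogenic stem cells (-0.91 ± 0.22, edgeR adjusted p = 0.0928). In 12 of the 24 both ketogenic libraries lay below both controls, where 17.5% of all tested genes did. Of 14 genes of fatty acid synthesis and desaturation Scd2 alone fell, and Fasn was at -0.17 ± 0.20. Me1, which makes NADPH for lipid synthesis and is also induced by fatty acid receptors, had 3 and 0 UMIs in control and 8 and 18 in ketogenic stem cells (3.03 ± 0.72, edgeR adjusted p = 0.0727).

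The other energy pathways gave no call in stem cells. Of 15 glycolysis, 17 tricarboxylic acid cycle and 11 pyruvate entry genes 0 were called by edgeR or by DESeq2, with 2, 1 and 0 genes at an unadjusted p under 0.05 and medians of -0.04, 0.01 and -0.06. The glycolytic pyruvate kinase Pkm was at 174 and 239 CPM in control and 150 and 161 CPM in ketogenic stem cells (-0.42 ± 0.14, edgeR adjusted p = 0.402). The 13 respiratory chain genes of the mitochondrial genome had a median of 0.12, with 0 called by either tool and 0 at an unadjusted p under 0.05. Their summed level was 120626 and 104395 CPM in control and 136340 and 108890 CPM in ketogenic stem cells, and it was highest in ketogenic library 1, as was the mitochondrial share given above.

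The rise of Fabp1 was spread over many stem cells. A Fabp1 UMI was absent from 79.8% and 77.2% of control stem cells and from 11.8% and 35.2% of ketogenic stem cells. At least 3 UMIs were found in 1.60% and 1.44% of control and in 52.0% and 29.3% of ketogenic stem cells. The tenth of cells with most Fabp1 held 68.0% and 64.9% of its UMIs in control and 44.5% and 60.9% in ketogenic stem cells.

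Free RNA in droplet data gives UMIs to cells that do not express a gene, so shares were set beside those of goblet and tuft cells after thinning every cell to 3000 UMIs. Shallower cells were left out, which removed 63, 114, 54 and 68 stem cells of the 4 libraries. A Fabp1 UMI was then found in 12.4% and 12.6% of control stem cells, below the tuft cell shares of 14.7% and 18.2% and above the goblet cell shares of 9.83% and 6.71%. In control library 2 the exact 95% interval of the stem share, 9.69% to 16.1%, lay above that of goblet cells, 4.63% to 9.34%. As the stem shares were also below those of tuft cells, these shares cannot decide whether control stem cells expressed Fabp1. In the ketogenic libraries the share was 72.5% and 48.5% in stem cells, 43.0% and 29.7% in goblet cells and 53.9% and 32.7% in tuft cells. The exact 95% binomial interval of the stem share, 65.8% to 78.6% and 43.4% to 53.5%, lay above the tuft cell interval in both, which ended at 63.8% and 42.9% and covers counting error only. Without thinning the stem shares were 20.2%, 22.8%, 88.2% and 64.8%.

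For Acot1 the control share was already above the level in other classes. After thinning, an Acot1 UMI was found in 22.1% and 23.9% of control stem cells against 2.46% and 2.94% of goblet cells and 7.35% and 7.07% of tuft cells. On the ketogenic diet the share was 54.5% and 45.7% in stem cells, 16.6% and 8.57% in goblet cells and 24.5% and 21.4% in tuft cells. In transit amplifying cells it was 10.9% and 9.57% on the control diet and 47.2% and 35.1% on the ketogenic diet, below stem cells in each library.

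**Figure D4:**
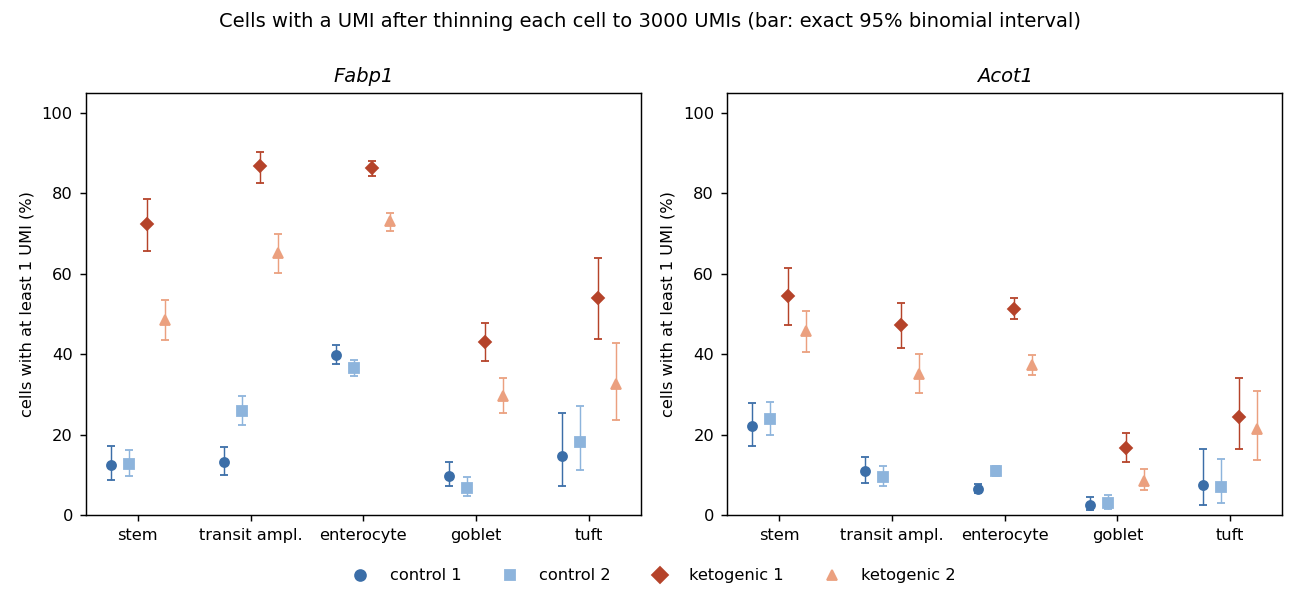
Share of cells with at least 1 UMI of Fabp1 or Acot1 (%, y axis) in 5 classes (x axis) after thinning to 3000 UMIs per cell, 1 point per library with its exact 95% binomial interval. Stem cells lie at 12.4% and 12.6% for Fabp1 on the control diet and at 72.5% and 48.5% on the ketogenic diet.

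Stem cells with an Lgr5 UMI were also summed on their own. Fabp1 in these cells was at 33.5 and 59.4 CPM on the control diet and 526 and 364 CPM on the ketogenic diet. In stem cells with 0 Lgr5 UMIs it was at 121 and 64.8 CPM and at 1494 and 1105 CPM, higher in each library. Acot1 ran the other way, at 90.9, 95.7, 341 and 261 CPM with an Lgr5 UMI and at 48.4, 58.4, 265 and 176 CPM without. The cells without an Lgr5 UMI had fewer UMIs (medians of 3694 to 4427 against 6664 to 8455) and more mitochondrial transcripts, and the part of depth and RNA quality in these contrasts was not tested. With only Lgr5-positive cells the log2 fold changes of Fabp1 and Acot1 between diets were 3.20 and 1.68, both called.

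The same diet effect was then set against transit amplifying cells, the direct daughters, in a fit of both classes with library as a block. The difference in diet effect was called for 20 of 10285 genes (0.194%), with 7 more positive (0.0681%) and 13 more negative (0.126%) in stem cells, or 10 and 12 with RLE size factors. Without ketogenic library 2 the count was 53. Of the 32 genes called in stem cells, 2 differed from transit amplifying cells. Acot1 was the named one, with a diet effect smaller in stem cells by 0.82 on the log2 scale (SE 0.13, edgeR adjusted p = 1.71e-06). Its control level was 81.3 and 90.0 CPM in stem cells against 30.8 and 37.8 CPM in transit amplifying cells. On the ketogenic diet the classes were closer, at 330 and 248 against 272 and 154 CPM.

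Among genes with no diet call in stem cells, the antimicrobial lectin Reg3g differed most clearly in the positive direction. It stayed at 152, 125, 160 and 175 CPM in stem cells and went from 479 and 366 to 216 and 252 CPM in transit amplifying cells (difference 1.11 ± 0.11, edgeR adjusted p = 2.39e-18). Reg3b, Rbp2, Dmbt1, Hsp90b1 and Pkm followed, with differences of 0.93, 0.72, 0.56, 0.48 and 0.46. Among these, Reg3b moved to 0.60 without control library 1. Rbp2 was not called without control library 1 (0.74), control library 2 (0.73) or ketogenic library 1 (0.65), and Hsp90b1 not without control library 2 (0.51) or ketogenic library 1 (0.35). Pkm lost its call on leaving out control library 1 (0.45), control library 2 (0.53) or ketogenic library 1 (0.37). Gkn3 was at 231 and 402 CPM in control and 378 and 353 CPM in ketogenic stem cells, and its diet effect was lower in stem than in transit amplifying cells (-0.43 ± 0.10, edgeR adjusted p = 0.0168). This call was lost on leaving out control library 1 (-0.30) or ketogenic library 2 (-0.38). Rexo2, an RNA exonuclease, was at -0.66 ± 0.16 (edgeR adjusted p = 0.0174), and was not called on leaving out control library 2 (-0.51), ketogenic library 1 (-0.73) or ketogenic library 2 (-0.52).

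The diet effect on 4 defensin genes of Paneth cells was lower in stem than in transit amplifying cells, by differences of -1.04 to -1.68. Defa24 was at 242, 240, 387 and 200 CPM in stem cells, overlapping between diets, and went from 72.2 and 76.5 to 246 and 128 CPM in transit amplifying cells (-1.04 ± 0.11, edgeR adjusted p = 8.46e-17). Summed Paneth markers were at 122, 102, 366 and 192 CPM in transit amplifying cells, beside 351, 305, 531 and 305 CPM in stem cells, and their part in this difference was not tested. Values of single defensins are uncertain, since the family holds near-identical copies. Defa21 lost its call without any 1 library (-0.96 to -1.29), and Defa22 without control library 1 (-1.36).

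Against enterocytes, 30 of 11570 genes differed in diet effect (0.259%), with 23 more positive (0.199%) and 7 more negative (0.0605%) in stem cells. Without control library 2 the count was 358, and without control library 1 or ketogenic library 2 it was 18 and 14. Of the 32 genes called in stem cells 3 differed. Fabp1 rose more in stem cells than in enterocytes, by 0.94 ± 0.14 on the log2 scale (edgeR adjusted p = 4.05e-05), although its level stayed lower, at 748 and 454 against 6867 and 3154 CPM on the ketogenic diet. This was not called without ketogenic library 2 (0.71). Acot1 rose less in stem cells, by -1.06 ± 0.16 (edgeR adjusted p = 9.68e-05).

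The fold changes of Ppargc1a had opposite signs in the 2 classes. It went from 4.47 and 9.34 to 16.3 and 15.4 CPM in stem cells and from 24.5 and 21.3 to 13.2 and 12.9 CPM in enterocytes (difference 1.88 ± 0.32, edgeR adjusted p = 0.000599). The sodium-glucose transporter Slc5a1 stayed at 66.1, 47.6, 57.5 and 66.3 CPM in stem cells and went from 150 and 104 to 55.3 and 55.3 CPM in enterocytes (1.33 ± 0.17, edgeR adjusted p = 1.84e-06). Reg3g and Reg3b also differed, by 1.76 and 1.66, since they were lower on the ketogenic diet in enterocytes and near their control level in stem cells.

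**Figure D5:**
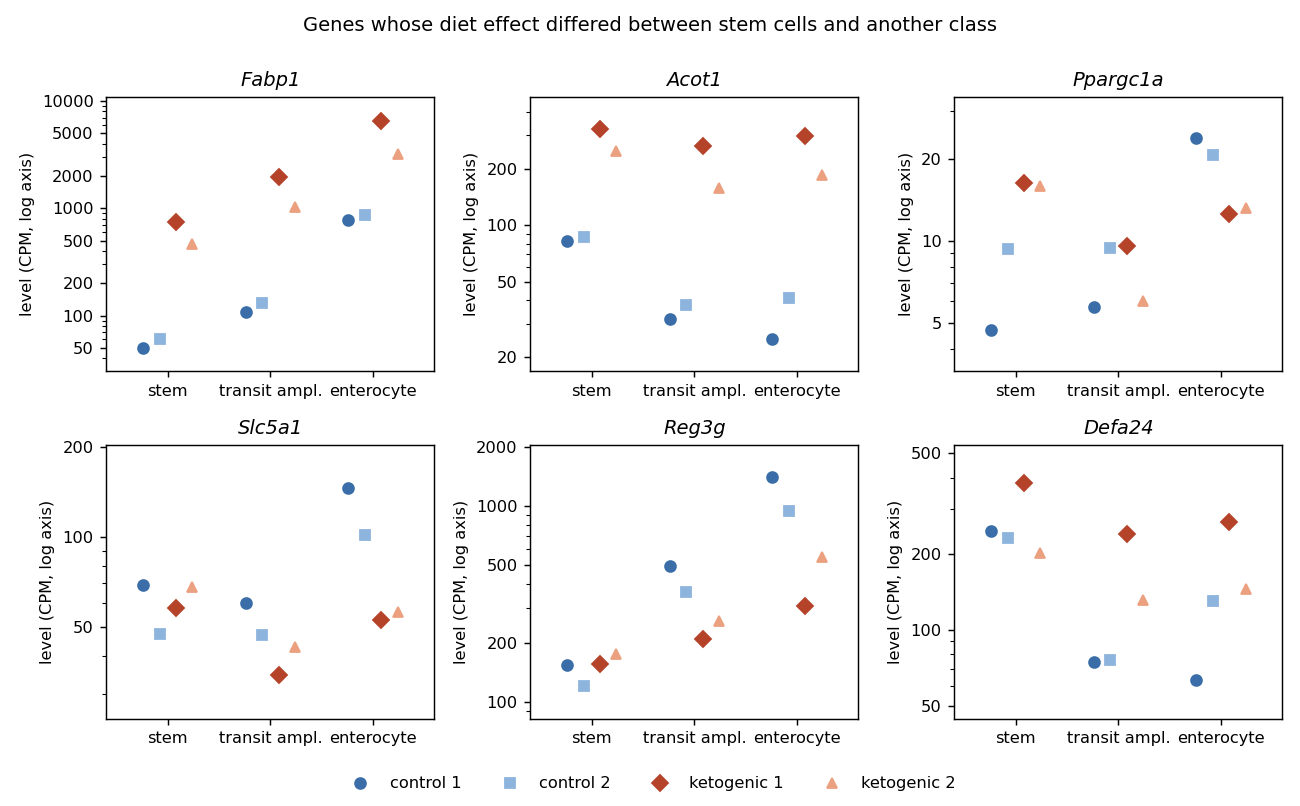
Level (CPM, log y axis) of 6 genes in stem cells, transit amplifying cells and enterocytes (x axis), 1 point per library. Acot1 has its highest control level in stem cells, and Reg3g and Slc5a1 are lower on the ketogenic diet in enterocytes and not in stem cells.

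The named genes that rose in stem cells mostly had a positive log2 fold change in the other classes, in 23 of 23 measured in transit amplifying cells, 23 of 23 in enterocytes and 20 of 22 in goblet cells. Herpud1 was an exception, at -0.14 in goblet and -0.27 in enteroendocrine cells, and Cst6 was at -0.95 in tuft cells. The median log2 fold change of the named rises was 1.002 in stem cells, where they were chosen, 0.99 in transit amplifying cells, 1.07 in enterocytes and 0.87 in goblet cells. It was 0.57 in enteroendocrine cells, 0.69 in the Paneth class, where 12 were measured, and 0.38 in tuft cells. The 7 named falls had a median of -1.54 in stem cells, -1.88 in transit amplifying cells, -1.385 in enterocytes and -2.23 in goblet cells. Their median was -1.31 in tuft cells (5 measured), -0.59 in enteroendocrine cells (4 measured) and -0.43 in the Paneth class (3 measured). These classes come from the same libraries and are no independent replicates of the diet. Klf9 was at 0.29 in transit amplifying cells and 0.40 in enterocytes against 0.88 in stem cells, and neither difference passed (0.58 ± 0.17 and 0.52 ± 0.17, edgeR adjusted p = 0.186 and 0.396).

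By level, Acot1, Sgk1, Clca4b and Cd74 were highest in stem cells among the 7 classes on both diets. Sgk1 averaged 39.0 CPM in control stem cells against 13.9 CPM in transit amplifying cells and 15.4 CPM in enterocytes, and 88.2 against 35.6 and 32.5 CPM on the ketogenic diet. Klf9 ranked 4 of 7 classes in control stem cells, at 39.8 CPM, and 1 of 7 on the ketogenic diet, at 74.7 CPM. Cd74 was also higher in stem cells than in the other classes in control library 2, at 73.9 CPM against 23.2 CPM in transit amplifying cells and 24.8 CPM in enterocytes. Fabp1 in contrast averaged 55.6 CPM in control stem cells against 819 CPM in enterocytes.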

How the data were processed

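Dissociated small intestine was sequenced with 10x 3' v2 chemistry, per the labels' protocols. The deposited matrix holds raw UMI counts of 27998 genes in 15053 cells. Cell Ranger 2.1.0 and build mm10 are named in the submitters' processing notes, and no source used here states the cell filters, doublet handling or annotation method. Counts were summed per library over the cells of each class. EdgeR 4.0.16 (quasi-likelihood test, TMM, filterByExpr, R 4.3.3) compared diets in stem cells, and the class by diet interaction used 8 sums with library as a block. CPM uses TMM-adjusted totals except for levels across classes and marker sums, which use plain totals. DESeq2 1.42.0 was an alternative. Other alternatives were no low-count filter, RLE size factors, cells under 10% mitochondrial UMIs, cells with an Lgr5 UMI, sums thinned to the lowest total, a replicate block, leaving out each library and, chosen after seeing the data, cells with 0 enterocyte marker UMIs. Scrublet in scanpy 1.11.5 called 0.0204% to 0.188% of cells, so it was taken not to have worked unless doublets had been removed before deposit, and the 6% of highest scores were left out instead.

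Named genes are the called genes of the stem cell comparison without ribosomal, mitochondrial and unnamed models, up to 6 called genes in each direction of each interaction, called list members and a fixed panel. Members and lists were chosen with earlier results of these data known. Other genes are named because a text point turns on them, and were chosen after their values were seen. Results for some genes are not reported here: counts over all genes include them, and the gene lists leave them out. Positions come from GENCODE M21 (mm10). Of 30 named called genes 24 had a RefSeq promoter window. On simulated counts edgeR recovered 86% of 100 genes changed by a log2 fold change of 1 in stem cells, and 100% at 2, with 8 false calls. The changed genes were drawn from the more highly expressed genes only, and counts were simulated at edgeR's trended dispersion. These shares therefore do not hold for genes with few UMIs. Intervals on shares of cells are exact (Clopper-Pearson) and cover counting error only.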

Additional observations from a re-analysis of the deposited data

Results flagged for a closer look

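For 13 named genes, of 20 called, the effect of the diet in stem cells differed from that in transit amplifying cells by the interaction test (edgeR, adjusted over all genes). The difference on the log2 scale was 1.11 for Reg3g, 0.93 for Reg3b, 0.72 for Rbp2, 0.56 for Dmbt1, 0.48 for Hsp90b1 and 0.46 for Pkm, all more positive in stem cells. It was -1.68 for Defa20, -1.57 for Defa22, -1.15 for Defa21, -1.04 for Defa24, -0.82 for Acot1, -0.66 for Rexo2 and -0.43 for Gkn3.

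For 14 named genes, of 30 called, the diet effect in stem cells differed from that in enterocytes by the same test. It was more positive in stem cells by 1.88 for Ppargc1a, 1.76 for Reg3g, 1.67 for Exoc3l4, 1.66 for Reg3b, 1.57 for Ms4a18, 1.33 for Slc5a1, 0.94 for Fabp1, 0.94 for Pkm and 0.59 for Hsp90b1. It was more negative by -1.47 for Defa20, -1.47 for Defa21, -1.23 for Defa22, -1.06 for Acot1 and -0.84 for Defa24.

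Some of these calls against enterocytes rested on 1 library. Ms4a18 lost its call on leaving out control library 1 (1.06) or ketogenic library 2 (1.03), Exoc3l4 not without ketogenic library 2 (1.52), and Hsp90b1 not without ketogenic library 1 (0.41) or 2 (0.76). Without control library 1 none of the 4 defensins was called, with Defa20 at -0.72, Defa21 at -1.09, Defa22 at -0.90 and Defa24 at -0.37. Without control library 2 Defa20 and Defa24 were at -2.21 and -1.41. Defa21 and Defa22 were also not called without ketogenic library 2 (-1.31 and -1.21).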

How the results depend on the processing

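With 2 libraries per diet, only differences well above the spread between libraries can pass. Of the 32 genes called in stem cells, the count became 12 with DESeq2, 5 in cells with 0 enterocyte marker UMIs (chosen after seeing the data), 74 with no filter on low counts and 99 with the replicate block, and 48 to 100 with 1 library left out. It was 30 with RLE size factors, 23 in cells under 10% mitochondrial UMIs, 23 in cells with an Lgr5 UMI, 47 thinned to the lowest total and 25 without the highest doublet scores. The 32 genes were all among those called with the replicate block, and 26 to 31 of them with 1 library left out. The 20 genes that differed from transit amplifying cells became 11 in cells under 10% mitochondrial UMIs, 5 when thinned and 2 with the replicate block, and 16 to 53 with 1 library left out. The 30 that differed from enterocytes became 49 with no filter and 14 to 358 with 1 library left out. With the replicate block edgeR called 0 of these, with 552 genes at an unadjusted p under 0.05 and no other tool run. In both interaction tests the replicate block took the place of the library block, so the 2 classes of a library were no longer paired. The log2 ratio of stem cell shares, 0.09, ran from -0.34 (without ketogenic library 2) to 0.42 with 1 library left out, and was -0.14 and 0.24 within replicate numbers 1 and 2, the replicate block for a share. Cd74 was the 1 named gene that reversed, and ran from -3.49 to 0.40 with 1 library left out (0.40 without control library 1). Same-numbered libraries' deviations correlated at 0.0147 over 9514 genes, and at 0.0877 over the 3542 genes whose average log2 CPM reached 5. Counting noise can hold such correlations down, so they cannot decide whether the replicate numbers pair the libraries. Except where the construction shows it (fewer cells, reads or samples, more genes tested), the cause of these changes was not tested.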

Other observations

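Immune and stress genes in stem cells gave few calls. Of 10 tested interferon response genes edgeR and DESeq2 called 0, and the median log2 fold change was -0.67. The unadjusted p was under 0.05 for 6 lower interferon genes, where 2.82% of all tested genes were. Their summed level was 390 and 357 CPM in control and 262 and 279 CPM in ketogenic stem cells. Isg15, a ubiquitin-like interferon product, was at -1.46 ± 0.40 (edgeR adjusted p = 0.194). Of 13 MHC class I genes 0 were called by either tool, 2 lower ones had an unadjusted p under 0.05, and the summed level was highest in control library 1, at 2164 CPM against 1390, 1556 and 1602 CPM in the other libraries.

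Genes of antioxidant defence, growth arrest and the immediate early response gave 0 calls among 18, 13 and 12 tested by edgeR and by DESeq2, with 2, 2 and 0 at an unadjusted p under 0.05 and medians of 0.10, 0.05 and 0.15. Akr1b8, an aldo-keto reductase, had 2 and 1 UMIs in control and 8 and 14 UMIs in ketogenic stem cells (2.81 ± 0.68, edgeR adjusted p = 0.0814). Of 21 genes of the regenerative, fetal-like epithelium only 3 had enough UMIs to test and 0 were called by either tool. Clu and Ly6a, markers of that state, had 2, 5, 3 and 15 UMIs and 3, 2, 1 and 0 UMIs in the 4 libraries.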
